A study of Mus musculus with 4 samples.

Results

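The cells described here were chosen as thick ascending limb-like cells of the mouse renal cortex, in single-cell profiles of Akita and wild-type mice. Cells were barcodes with 200 or more genes detected and no more than 50% mitochondrially encoded transcripts among their unique molecular identifiers (UMIs, the tags that count captured mRNA molecules). A retained cell was a member when its UMIs of Umod and Slc12a1 summed to at least 2 and exceeded each of 3 other sums, namely Slc12a3 with Trpm6, S100g with Klk1, and Atp6v1g3 with Atp6v0d2 and Slc26a4. This rule found 55 members among 1916 retained cells (2.87%), with 9 in Akita replicate 1, 17 in Akita replicate 2, and 15 and 14 in wild-type replicates 1 and 2. Cells in which one of the other sums was at least 2 and the highest are called here Slc12a3/Trpm6 cells (179 cells), S100g/Klk1 cells (394 cells) and Atp6v cells (102 cells), by the genes that chose them.

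Drop-seq had been run on renal cortex from 1 kidney per mouse, with 2 libraries from Akita mice (C57BL/6-Ins2Akita/J, a model of type 1 diabetes with a mutation in Ins2, an insulin gene) and 2 from their wild-type counterparts. Ages per the labels were 116 and 119 days for Akita and 45 and 51 days for wild type, so genotype and age cannot be told apart here. The labels name no other allele or agent for either group. Cortex holds only the cortical stretch of the thick ascending limb and not its medullary part.

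The thick ascending limb is the water-tight segment of the nephron that reabsorbs sodium, potassium and chloride through the apical cotransporter NKCC2, encoded by Slc12a1, which is the target of loop diuretics. Its cells secrete uromodulin, encoded by Umod and the most abundant protein of normal urine, and make the precursor of epidermal growth factor, Egf. Potassium recycles through the apical channel ROMK (Kcnj1), chloride leaves across the basolateral membrane, and the resulting voltage drives calcium and magnesium between the cells through claudins (Cldn16, Cldn19). The next segment, the distal convoluted tubule, carries Slc12a3 in place of Slc12a1, and its early part borders on cells that still make uromodulin.

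The members were few in molecules as well as in number. Each file listed between 1998 and 2000 barcode strings and held between 1016719 and 1303453 UMIs, of which the members of a library held 32557 and 25731 (Akita) and 32121 and 18954 (wild type). The median member had 830 UMIs, 454 detected genes and 24.9% of its UMIs from mitochondrially encoded genes, and the range of UMIs per member ran from 288 to 21784. The median mitochondrial percentage of the members was 23.7 and 25.7 for Akita and 25.7 and 19.2 for wild type. Over all retained cells of the same libraries it was 19.4, 18.5, 20.3 and 18.4. Members lay above their library's median in all 4 libraries, by under 1 percentage point in wild-type replicate 2. In the plot of UMIs per member, 4 cells stand above 5000 UMIs, and these held 51.7% of all member UMIs. The deepest cell alone gave 66.9% of the member UMIs in Akita replicate 1, 57.1% in Akita replicate 2, and 35.8% and 16.3% in wild-type replicates 1 and 2.

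**Figure D1:**
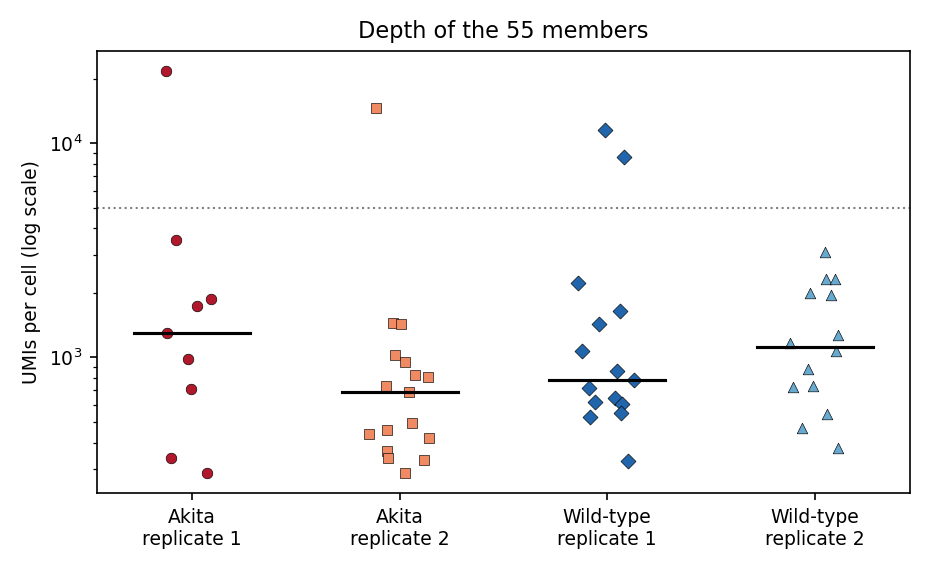
UMIs per thick ascending limb-like cell (vertical, log scale) in each of the 4 libraries, 1 point per cell, with the median as a bar and 5000 UMIs as a dotted line. The points sit mostly between 288 and 3548 UMIs, and 4 cells in 3 of the libraries lie above the dotted line, up to 21784 UMIs.

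The barcodes themselves limit how many cells the 55 members stand for. Akita replicate 2 and wild-type replicate 1 shared 884 barcodes, while each of the other 5 pairs of libraries shared 3 or 4. Of the members, 25 carried a barcode found in 2 files (12 in Akita replicate 2 and 13 in wild-type replicate 1), and 12 barcodes were members in both files. For those 12 barcodes the UMIs in one file were between 0.484 and 1.34 times those in the other, with a median of 0.994. The 55 members therefore had 43 distinct barcodes. In addition, 18 members had a barcode 1 base away from that of some other cell in their file. The barcodes below show the pattern around the deepest members, each written 5′ to 3′ with the base that differs from the first barcode of its pair in capitals, counted from 1 at the 5′ end.
Akita replicate 1, 21784 UMIs with 140 of Umod: ttcgaggctcga
Akita replicate 1, 289 UMIs with 2 of Umod, base 11 differs: ttcgaggctcCa
Akita replicate 1, 337 UMIs with 3 of Umod, shifted by 1 base so that base 12 is new: tcgaggctcgaC
Akita replicate 2, 14688 UMIs with 78 of Umod: ttgaggtcggct
Akita replicate 2, 830 UMIs with 5 of Umod, base 4 differs: ttgCggtcggct
Wild-type replicate 1, 11506 UMIs with 71 of Umod: ttgaggtcggct
Wild-type replicate 1, 649 UMIs with 4 of Umod, base 4 differs: ttgCggtcggct
The deepest member of Akita replicate 2 and the deepest member of wild-type replicate 1 thus had the same barcode, and so did the smaller neighbour of each. Results below are given with these files as deposited, and counts of calls without shared barcodes are given beside them. Nothing in the labels says whether such barcodes are 1 cell or several.

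Umod and Slc12a1, the genes that chose the members, are described here without a test, although the genotype comparison below did not leave them out. Umod (chr7:119462711-119479282, minus strand, GRCm38) had 191 and 158 UMIs in the members of the Akita libraries and 168 and 142 in those of wild type, or 5867, 6140, 5230 and 7492 CPM (the gene's UMIs relative to all UMIs of the same cells). Slc12a1 (chr2:125152505-125230002, plus strand) had 32, 27, 21 and 71 UMIs in the same order, or 983, 1049, 654 and 3746 CPM. Umod was thus near one level in the 4 libraries, while Slc12a1 was highest in wild-type replicate 2. Members held 659 of the 1412 Umod UMIs of all retained cells and 151 of the 292 Slc12a1 UMIs.

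Both genes of the rule did not mark the same members. A Umod UMI was found in 53 of 55 members, but a Slc12a1 UMI in only 17. The 38 members without Slc12a1 held 498 UMIs of Umod among 93706 UMIs. The 17 members with Slc12a1 held 161 UMIs of Umod and 151 of Slc12a1 among 15657 UMIs, so the pair stood there at about equal counts. The deepest member, with 21784 UMIs and 140 of Umod, had 0 UMIs of Slc12a1, which allows up to 138 CPM at a limit of 3 counts. It also had 68 UMIs of Slc12a3 and Trpm6 together and 113 of S100g and Klk1 together. By contrast, a member of 1874 UMIs in the same library had 26 of Umod and 31 of Slc12a1. The members with Slc12a1 numbered 2 and 7 for Akita and 3 and 5 for wild type, against 7, 10, 12 and 9 without it. Slc12a1, which defines the segment, was thus detected in a minority of the cells that the rule chose, and the label is not borne out by it for the other 38, so the cells are called members throughout. Median depth was similar, at 734 UMIs with Slc12a1 and 857 without. Of the 12 barcodes that were members in both files, 10 were on the same side of this split in both.

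**Figure D2:**
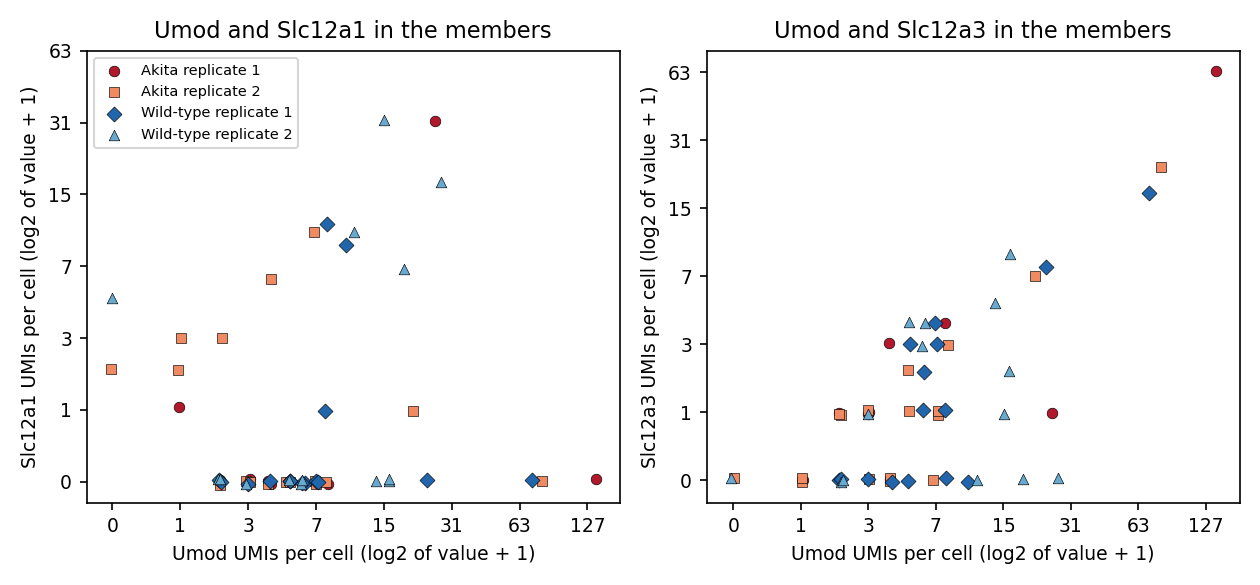
UMIs of Umod (horizontal) against Slc12a1 (left) and against Slc12a3 (right) in each of the 55 members, on a scale of log2 of the value plus 1 with small random shifts, coloured by library. The 38 members with 0 Slc12a1 lie along the bottom of the left panel up to 140 UMIs of Umod. Those of 21784, 14688 and 11506 UMIs are the highest in Slc12a3 on the right, while the next deepest, of 8588 UMIs, has 0.

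The promoters of both genes are shown because their transcripts came apart in these cells. Each is the RefSeq window from 250 bases before to 50 bases after the start (GRCm38.p6), on the gene's strand, with matches in capitals to 2 short AT-rich motifs (GTTAAT and TTAATNATT, both strands searched; the patterns share bases where they overlap).
Umod, chr7:119479213-119479512, minus strand: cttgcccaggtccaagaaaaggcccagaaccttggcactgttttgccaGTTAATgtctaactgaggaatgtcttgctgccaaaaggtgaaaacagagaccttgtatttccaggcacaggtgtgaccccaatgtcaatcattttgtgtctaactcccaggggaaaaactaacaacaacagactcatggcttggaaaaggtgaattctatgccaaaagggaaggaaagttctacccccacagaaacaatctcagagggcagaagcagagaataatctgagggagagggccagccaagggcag
Slc12a1, chr2:125152350-125152649, plus strand: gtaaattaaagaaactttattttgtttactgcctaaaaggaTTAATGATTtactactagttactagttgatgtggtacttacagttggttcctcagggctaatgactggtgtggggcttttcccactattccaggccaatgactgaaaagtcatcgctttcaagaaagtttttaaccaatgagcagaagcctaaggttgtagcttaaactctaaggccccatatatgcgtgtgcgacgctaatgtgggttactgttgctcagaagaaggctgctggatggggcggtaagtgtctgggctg
GTTAAT was in 7.10% and TTAATNATT in 1.47% of 32851 RefSeq promoters of this length, so neither match is rare enough to single out a promoter. The promoter of Wfdc15b, another marker gene described below, also had a TTAATNATT match, and those of Egf had neither motif. A link between these motifs and the split of the members was not tested.

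The members with and without Slc12a1 also differed in other genes, which is given as a description because the split was chosen on these cells. Slc12a3 or Trpm6 was found in 5 of 17 members with Slc12a1 and in 28 of 38 without it. The rule keeps their sum below that of Umod and Slc12a1 in each cell. Umod alone stood at 10283 CPM with Slc12a1 and 5314 CPM without, so this bound was not the same in both. Pvalb, the calcium buffer parvalbumin of the distal convoluted tubule, had 2 UMIs in 1 of 17 members with Slc12a1 and 96 UMIs in 17 of 38 without. Defb1, an antimicrobial beta-defensin, had 5 UMIs in 2 of 17 cells (319 CPM) and 357 UMIs in 32 of 38 cells (3810 CPM). By library, Defb1 was in 6 of 7, 8 of 10, 11 of 12 and 7 of 9 members without Slc12a1, and in 1 of 2, 1 of 7, 0 of 3 and 0 of 5 members with it, so the contrast had the same direction in each library. Wnk1, a kinase that regulates the salt cotransporters, was in 2 of 17 and 26 of 38 cells, and Calb1, the calcium buffer calbindin of the distal tubule, in 1 of 17 and 15 of 38.

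In the opposite direction, Klk1, the kallikrein of the distal nephron and a rule gene of another class, stood at 4471 CPM with Slc12a1 and 822 CPM without. Klk1 had this direction in each library. The rule keeps S100g with Klk1 below Umod with Slc12a1 in each cell, so the split also changes how much Klk1 a member may hold. This contrast is thus not free of the rule. Of the 70 Klk1 UMIs with Slc12a1, 28 were in 1 member of wild-type replicate 2. Sostdc1, an antagonist of BMP and Wnt signals, stood at 1916 and 662 CPM, but in Akita replicate 1, which had 2 members with Slc12a1, at 316 and 1123 CPM. Egf stood at 5876 and 3191 CPM, with 1893 and 3913 CPM in Akita replicate 1, and it was found in 13 of 17 members with Slc12a1 and 34 of 38 without, so its order differed between levels and shares of cells. Wfdc15b, a protease inhibitor family gene, was nearer equal at 4343 and 3362 CPM, and so was Kcnj1 at 703 and 544 CPM. For Wfdc15b this joined libraries of opposite direction. With Slc12a1 it stood at 8520 and 5541 CPM in Akita and 2319 and 1946 CPM in wild type. Without Slc12a1 it stood at 3131, 3785, 3230 and 3474 CPM in the same order. It was found in 11 of 17 members with Slc12a1 and 34 of 38 without. Without the 4 cells above 5000 UMIs, all of which lacked Slc12a1, the remaining 34 members without it kept Defb1 at 3258 CPM and Pvalb in 14 cells. With each barcode counted once, Defb1 was in 1 of 14 members with Slc12a1 and 25 of 29 without.

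Among Atp6v cells, whose median depth was 787 UMIs, Defb1 was found in 30.4% and Pvalb in 0.980%, and among the 1186 cells in no distal class (median 664 UMIs) in 9.78% and 1.69%. The share with Defb1 among members without Slc12a1 was thus above both, while the share among members with Slc12a1 (11.8%) was below that of the Atp6v cells. Slc12a3/Trpm6 cells are not in this contrast. Defb1 did not pass between them and all members, as given below, which does not show equal levels. Defb1 can therefore not be called particular to the members without Slc12a1, and these were not tested apart from the other members.

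Egf, Wfdc15b and Ppp1r1a, the 3 markers of the segment that the rule did not use, were found in most members. At least 1 of them was present in 50 of 55 members (90.9%), against 140 of 179 Slc12a3/Trpm6 cells and 170 of 1186 cells in no distal class. Egf had 121, 91, 86 and 93 UMIs in the 2 Akita and 2 wild-type libraries, or 3717, 3537, 2677 and 4907 CPM. Wfdc15b stood at 3655, 4081, 3144 and 3060 CPM, and Ppp1r1a, an inhibitor of protein phosphatase 1 that acts downstream of cyclic AMP, at 860, 1827, 1370 and 1319 CPM. The 3 genes were present in the members of every library, and the Akita and wild-type values overlapped for Egf and Ppp1r1a.

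Shares of cells with a UMI depend on depth and on free RNA, so they are given beside a class that should lack the gene. Egf was found in 85.5% of members (exact Clopper-Pearson 95% interval 73.3 to 93.5%), in 65.4% of Slc12a3/Trpm6 cells (median 1240 UMIs), and in 6.86% of Atp6v cells. After each cell was thinned to 500 UMIs, which left out 13 of 55 members, 19 of 179 Slc12a3/Trpm6 cells and 21 of 102 Atp6v cells, the shares with Egf were 81.0%, 45.6% and 1.23%. For Wfdc15b the thinned shares were 81.0%, 35.0% and 4.94%, and for Ppp1r1a 52.4%, 28.8% and 2.47%. At equal depth, then, the intervals of members and Slc12a3/Trpm6 cells did not meet for Egf (65.9 to 91.4% against 37.7 to 53.7%) or Wfdc15b (65.9 to 91.4% against 27.6 to 42.9%), and met narrowly for Ppp1r1a (36.4 to 68.0% against 21.9 to 36.43%). These intervals cover counting error only and take cells as independent, which shared barcodes are not.

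The threshold of 2 UMIs admitted some cells with little of the segment's profile. Of the 8 members with exactly 2 UMIs of Umod and Slc12a1, 4 had Egf, 3 had none of the 3 other markers, and Kap, an androgen-regulated gene of the proximal tubule, stood at 16645 CPM. Of their 248 Kap UMIs, 181 were in 1 cell, without which the level was 5677 CPM. The 7 members with 3 UMIs all had Egf, and Kap was at 5316 CPM in them. Of the 24 members with 7 or more UMIs, 22 had Egf. Just outside, the 31 cells with 1 UMI above the other sums had Egf in 2 and Kap at 46407 CPM. A pair of members at the threshold returns below, 1 of 8588 UMIs in wild-type replicate 1 (2 UMIs of Umod, 2 of Egf and 41 of Kap) and 1 of 3096 UMIs in wild-type replicate 2 (2 of Umod, 0 of Egf and 181 of Kap).

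Transport genes of the segment were measured unevenly in the members. Subunits of the sodium pump led, with its regulatory subunit Fxyd2 at 11348 CPM and its beta subunit Atp1b1 at 7525 CPM. The Kir4.1 channel Kcnj10 stood at 491, 661, 654 and 950 CPM in the 2 Akita and 2 wild-type libraries, and its partner Kcnj16 at 850 CPM over all members. Kcnj1 stood at 553, 583, 498 and 686 CPM. Kcnj10 and Kcnj1 thus varied by less than a factor of 2 among the libraries. The kinase Stk39, which activates the cotransporters, had 25 UMIs in 10 cells, and Slc9a3, the apical sodium-proton exchanger, had 0.

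Genes of the paracellular route had few UMIs, and genes of hormone sensing were uneven. Of 14 claudin and junction genes, 11 had a UMI in a member, and together they made 512 CPM. Cldn16 had 2 UMIs, both in 1 member of Akita replicate 1 that also had Slc12a1, while Cldn19 and Cldn14 had 0, which allows up to 27.4 CPM each over the 109363 member UMIs. Cldn10, the sodium-selective claudin of the segment, had 7 UMIs in 4 cells. Casr, the calcium-sensing receptor, had 3 UMIs in 3 cells, and the prostaglandin receptor gene Ptger3 had 1. Pth1r, the parathyroid hormone receptor, had 28 UMIs in 14 cells. Another prostaglandin receptor gene, Ptgfr, had 43 UMIs in 15 cells (393 CPM). The transcription factors were led by Tfap2b (21 UMIs in 13 cells) and Pou3f3 (19 UMIs in 12 cells).

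Markers of other cells were looked for in the members. Of the 4 macula densa genes measured, including Nos1 and Pappa2, none had a UMI in a member. Stromal genes had 0 UMIs, endothelial genes 45.7 CPM (Flt1 with 2 UMIs) and immune genes 18.3 CPM, while Nphs1, Col1a1, Pecam1 and Ptprc were at 0. The principal cell gene Aqp2 was at 0, and the intercalated list made 256 CPM, against 17260 CPM in Atp6v cells. Markers of the neighbouring segments were present, in lists that include rule genes. Distal convoluted tubule genes made 7343 CPM in members, 11338 CPM in Slc12a3/Trpm6 cells and 1471 CPM in Atp6v cells. Connecting tubule genes made 3237, 1887 and 2675 CPM in the same order, and 10378 CPM in S100g/Klk1 cells. In the members of the 2 Akita and 2 wild-type libraries they made 4577, 2643, 1619 and 4485 CPM. Without the cells above 5000 UMIs these sums were 1485, 2988, 2411 and 4485 CPM, so the level in Akita replicate 1 rested on its deepest member. Of 6 distal convoluted tubule markers tested against Slc12a3/Trpm6 cells, 0 passed in either direction. Proximal tubule genes were present: 14 of 15 listed genes had a UMI, and together they made 12900, 8744, 18119 and 28754 CPM in the 2 Akita and 2 wild-type libraries. Without the cells above 5000 UMIs the sums were 16894, 7788, 8980 and 28754 CPM, so that wild-type replicate 1 then lay below Akita replicate 1. The same list summed to 16203 CPM over all members, 40003 CPM in Slc12a3/Trpm6 cells, 69365 CPM in S100g/Klk1 cells, 23770 CPM in Atp6v cells and 82345 CPM in cells of no distal class. The part of this signal in the comparisons below was not tested.

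Members were compared with the 3 other classes within libraries, by edgeR's quasi-likelihood test on UMIs summed per class, with the 9 genes of the rule left out. Akita replicate 2 and wild-type replicate 1 were summed into 1 unit because of their shared barcodes, which left 3 units as blocks. The classes were chosen from 9 genes of the same cells, so other genes that travel with those 9 are not independent of the choice, and p-values measure the spread between 3 units.

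Against Slc12a3/Trpm6 cells, the nearest class, 8 of 1248 tested genes were higher in members (0.641%) and 47 were lower (3.77%), at an adjusted p under 0.05. The higher genes were Ckb, the brain-type creatine kinase, Gm47708, Pigr, the receptor that carries immunoglobulins across epithelia, Wfdc15b, Kcnj10, Spp1, which encodes osteopontin, Sostdc1 and Fkbp3. Ckb stood at 1167, 1360, 1058 and 317 CPM in the members of the 2 Akita and 2 wild-type libraries and at 252 CPM over the Slc12a3/Trpm6 cells, a log2 fold change of 1.91 (SE 0.39, edgeR adjusted p 0.0034), and it was higher in 4 of 4 libraries. Wfdc15b stood at 832, 1850, 1440 and 1678 CPM in the Slc12a3/Trpm6 cells of the 4 libraries, below the members of the same library each time. It was higher in members by 1.34 on the log2 scale (SE 0.30, edgeR adjusted p 0.0064) and Kcnj10 by 1.27 (SE 0.35, edgeR adjusted p 0.032), also in 4 of 4 libraries. Without the cells above 5000 UMIs, Wfdc15b (log2 1.56) and Kcnj10 (log2 1.34) still passed, and the other 6 did not, with adjusted p of 0.14 for Ckb (log2 1.10), 0.14 for Gm47708, 0.31 for Pigr, 0.068 for Spp1, 0.096 for Sostdc1 and 0.059 for Fkbp3 (all edgeR). For Pigr, 54.7% of the member UMIs were in 1 cell. Over all alternatives the adjusted p of Ckb ran from 0.00011 to 0.47 and that of Wfdc15b from 0.0035 to 0.56, with the direction kept in each.

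The genes lower in members than in Slc12a3/Trpm6 cells included nuclear RNAs and proximal tubule genes. Malat1, a long noncoding RNA that stays in the nucleus, stood at 952, 894, 10336 and 12398 CPM in the members of the 2 Akita and 2 wild-type libraries and at 29128 CPM over the Slc12a3/Trpm6 cells, lower by a log2 fold change of -2.62 (SE 0.45, edgeR adjusted p 0.00084). Neat1, another nuclear RNA, changed by -2.16 (SE 0.34, edgeR adjusted p 0.00053). Dnase1, which encodes a secreted nuclease, changed by -2.37, and Lhx1, a transcription factor of nephron patterning, by -2.02. Of the 14 tested proximal tubule markers, 8 were lower and 0 higher, with a median log2 fold change of -1.34 against 0.00 for all genes tested. Kap (log2 -1.35) and Lrp2 (log2 -1.74), the endocytic receptor megalin, were among them, beside the summed levels of this list given above.

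Lists of the segment's functions gave few single calls against Slc12a3/Trpm6 cells. Of 9 tested genes for secreted proteins, 3 were higher (Wfdc15b, Spp1 and Sostdc1) and all 9 had positive fold changes, with a median of 0.97. Without the cells above 5000 UMIs, Wfdc15b alone of these 3 passed, since Spp1 (edgeR adjusted p 0.068) and Sostdc1 (edgeR adjusted p 0.096) did not. Egf missed the threshold (log2 0.97, SE 0.29, edgeR adjusted p 0.0503), as did Kcnj1 (log2 1.16, edgeR adjusted p 0.053), Atp1b1 (log2 0.88) and Defb1 (log2 0.96). Of 13 tested transport genes, 8 had positive fold changes, Kcnj10 was higher and Slc4a4, the sodium bicarbonate cotransporter best known from the proximal tubule, was lower (log2 -1.48, edgeR adjusted p 0.014). Nuclear genes of oxidative phosphorylation, which supplies the ATP for this segment's sodium pumps, had positive fold changes in 66 of 69 cases with a median of 0.41, but 0 passed edgeR's adjusted threshold and 18 had an unadjusted p under 0.05, all of them higher in members. Over all 1248 tested genes, 626 had positive fold changes. At an unadjusted edgeR p under 0.05, 79 of the 1248 were higher and 140 lower. Together these genes made 119145, 120633, 102923 and 78242 CPM in the members of the 4 libraries and 74446 CPM over the Slc12a3/Trpm6 cells. Mitochondrial content moved with this contrast: the median mitochondrial percentage was 24.9 in members and 17.5 in Slc12a3/Trpm6 cells, and the mitochondrially encoded protein genes, of which 8 of 8 had positive fold changes, summed to 121376 and 88379 CPM. Its part in these differences, and in the lower nuclear RNAs, was not tested.

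The calls against Slc12a3/Trpm6 cells rested on the unit that joined Akita replicate 2 and wild-type replicate 1. Without it 0 genes passed edgeR's threshold, with 90 of 838 at an unadjusted p under 0.05, and with the shared barcodes left out of both files 7 genes passed, all of them lower in members and among the 55.

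Against S100g/Klk1 cells, 145 of 2668 tested genes were higher in members (5.43%) and 230 were lower (8.62%). This class carried much proximal tubule RNA, with Kap at 36233 CPM against 7215 CPM in members, and all 14 tested proximal tubule markers were lower in members. Among the higher genes, Wfdc15b differed by a log2 fold change of 3.97 (SE 0.31, edgeR adjusted p 2.1e-12), Egf by 3.65 and Ckb by 4.05. Kcnj1 (log2 2.84), Kcnj10 (log2 2.76) and Atp1b1 (log2 1.62) were higher too, among 9 of 14 tested transport genes that were higher in members. Pvalb was higher by 4.53, with 98 UMIs in 18 members, 33.7% of them in 1 cell. Genes of oxidative phosphorylation were higher in 22 of 70 cases and lower in 0, among them Cox6c (log2 1.32) and Ndufb9 (log2 1.36), beside a median of 0.72 for the list and -0.10 for all genes. The metal-binding proteins Mt1 (log2 2.29) and Mt2 (log2 2.43) were higher, and the antioxidant enzymes Gpx1, Gpx3, Gpx4 and Sod1 and the thioredoxin Txn1 were lower. Without the cells above 5000 UMIs 132 genes passed, and with shared barcodes left out 81.

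Against Atp6v cells, 31 of 755 tested genes were higher in members (4.11%) and 38 were lower (5.03%). Egf (log2 5.84, SE 0.40, edgeR adjusted p 0.00063), Ppp1r1a (log2 5.11) and Wfdc15b (log2 4.99) were higher, each in 4 of 4 libraries. Kcnj10 had 72 UMIs in members and 0 in Atp6v cells, so it was at least 25.5-fold higher at a limit of 3 counts over the class. Kcnj1 (62 UMIs against 1), Pvalb (98 against 1), Sfrp1 (log2 4.25), a secreted Wnt modulator, and Sostdc1 (log2 3.97) were higher as well. Of 6 tested intercalated cell genes outside the rule, 5 were lower in members. Slc4a9, a bicarbonate transporter of intercalated cells, had 0 UMIs in members and 593 CPM in Atp6v cells, at least 21.6-fold lower, and Atp6v1c2, a proton pump subunit, was at least 53.0-fold lower. Car2, a carbonic anhydrase, stood at 183 and 4403 CPM (log2 -4.73). Of 13 tested proximal tubule markers, 0 passed edgeR's threshold in either direction and 2 had an unadjusted p under 0.05. Without the joined unit 0 genes passed here too, with 60 of 380 at an unadjusted p under 0.05, and without Akita replicate 1 there were 5. With shared barcodes left out there were 34.

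**Figure D3:**
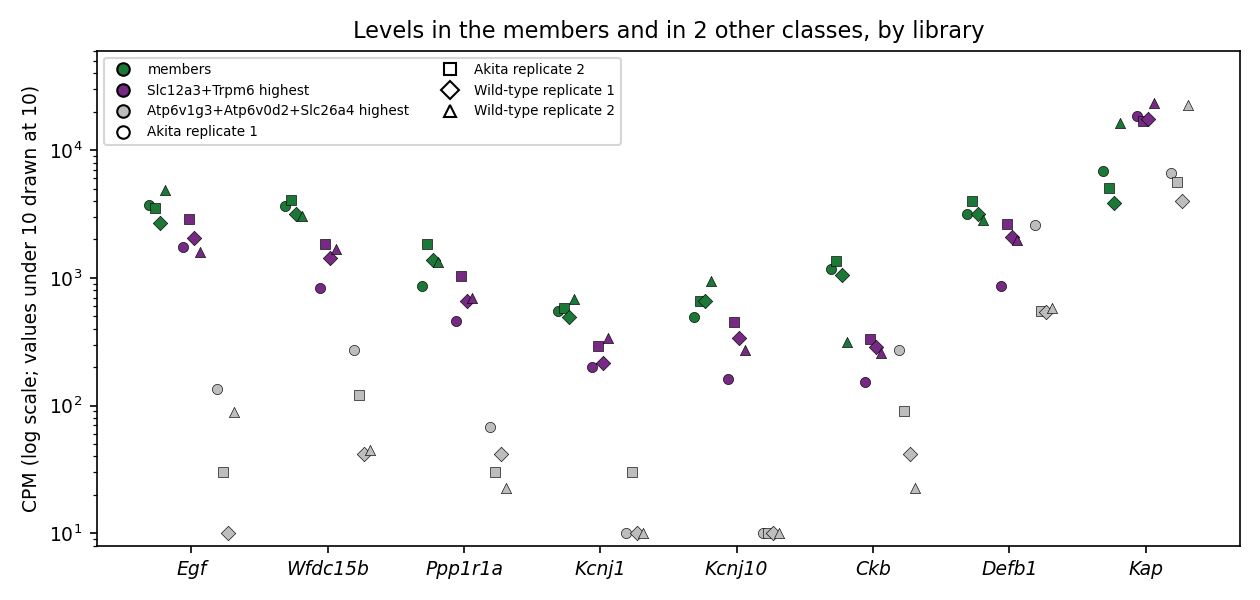
Levels in CPM (log scale, values under 10 drawn at 10) of 8 genes in members, Slc12a3/Trpm6 cells and Atp6v cells, 1 point per library and class. Egf, Wfdc15b, Kcnj1 and Kcnj10 are highest in members and lowest in Atp6v cells within each library, while Kap is higher in the Slc12a3/Trpm6 cells than in members of the same library.

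The share of members among retained cells was close in both genotypes. It was 2.89% and 2.83% for Akita and 2.66% and 3.17% for wild type, or 2.86% ± 0.0428 and 2.92% ± 0.364 (SD, n = 2 each). The Akita values lay between those of the wild-type libraries. The difference was -0.0535 percentage points, with an exact two-sided permutation p of 1.00, where the smallest p that 2 against 2 allows is 0.3333. The direction turned when shared barcodes were left out (0.494 points). Numbers of cells after digestion and droplet capture do not separate fewer cells in the tissue from fewer cells recovered.

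Between genotypes, 4 of 399 tested genes passed edgeR's threshold in the members, all lower in Akita (1%), and 0 were higher, with 7 higher and 14 lower at an unadjusted p under 0.05. DESeq2 called 2 and limma-voom 1, all lower. The 4 genes were Malat1, Cyp4b1, a fatty acid-metabolising cytochrome of the proximal tubule, Ndrg1, a stress-responsive gene, and Miox, the myo-inositol oxygenase of the proximal tubule. Malat1 (chr19:5795690-5802672) stood at 952 and 894 CPM in Akita and at 10336 and 12398 CPM in wild type, with no overlap, and its log2 fold change was -3.78 (SE 0.31, edgeR adjusted p 7.9e-06). Cyp4b1 stood at 61.4 and 155 CPM in Akita and at 841 and 1794 CPM in wild type (log2 -3.72, SE 0.60, edgeR adjusted p 0.0060). Ndrg1 stood at 61.4 and 194 CPM against 778 and 897 CPM (log2 -2.89, edgeR adjusted p 0.022), and Miox at 184 and 38.9 CPM against 1090 and 580 CPM (log2 -2.96, edgeR adjusted p 0.025). Groups did not overlap at 158 of 399 tested genes (39.6%), so separation of 2 from 2 libraries was common in this table.

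Most molecules of these 4 genes came from the pair of threshold members named above. The member of 8588 UMIs in wild-type replicate 1 held 322 of that library's 332 Malat1 UMIs, 23 of 27 for Cyp4b1, 20 of 25 for Ndrg1 and 30 of 35 for Miox. The member of 3096 UMIs in wild-type replicate 2 held 202 of 235 Malat1 UMIs, 29 of 34 for Cyp4b1, 9 of 17 for Ndrg1 and 4 of 11 for Miox. Malat1 was found in 7 of 9, 7 of 17, 8 of 15 and 9 of 14 members, and outside its highest cell each library had 16, 15, 10 and 33 UMIs of it. In the other retained cells of the same libraries Malat1 stood at 20153, 23781, 21970 and 13462 CPM, with no gap in the direction seen in members. With at least 4 UMIs of Umod and Slc12a1 required, which leaves out both cells, 0 genes passed edgeR's threshold, with 6 of 321 at an unadjusted p under 0.05, and Malat1 differed by -0.82 (edgeR adjusted p 1.00). Over all alternatives the adjusted p of Malat1 ran from 7.3e-21 to 1.00. Without the cells above 5000 UMIs, Malat1 alone passed (log2 -2.33), although its level in wild-type replicate 1, 748 CPM, was then below both Akita libraries (1485 and 1811 CPM). With shared barcodes left out of both files, 0 of 146 tested genes passed, with 3 at an unadjusted p under 0.05.

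**Figure D4:**
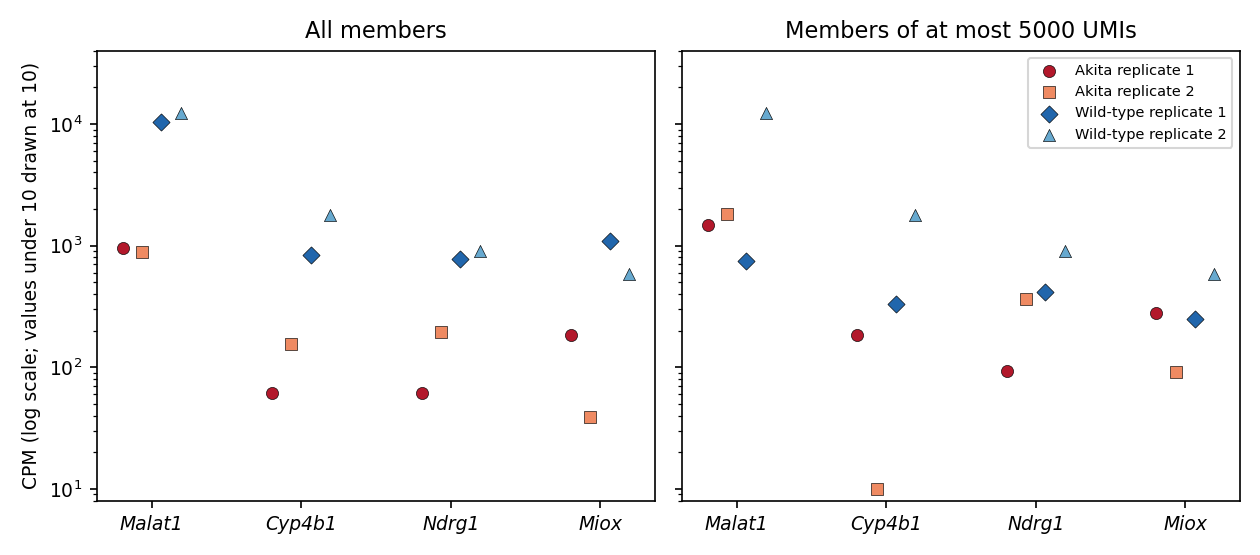
Levels in CPM (log scale, values under 10 drawn at 10) of Malat1, Cyp4b1, Ndrg1 and Miox in the members of the 2 Akita and 2 wild-type libraries, with all members (left) and with members of at most 5000 UMIs (right). The genotypes are apart for all 4 genes on the left, while on the right wild-type replicate 1 falls to 748 CPM for Malat1, below both Akita libraries.

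Genes of the segment that the rule did not use did not pass between genotypes. Egf differed by a log2 fold change of -0.22 (SE 0.34), Wfdc15b by 0.15 (SE 0.28), Ppp1r1a by -0.19 (SE 0.41) and Kcnj1 by -0.18 (SE 0.41), and no edgeR adjusted p of these was below 0.95. A p above the threshold at standard errors of this size does not show equal levels. The genotype test did not leave out the genes of the rule, so the 399 tested genes include Umod, Slc12a1, Slc12a3, S100g and Klk1. Their values chose the members, so for these genes the test is no independent result. Of 10 tested transport genes, which include Slc12a1 of the rule, 0 passed edgeR's threshold and 0 had an unadjusted p under 0.05. Of 67 tested genes of oxidative phosphorylation, 53 had positive fold changes with a median of 0.23, against -0.01 over all genes, 0 passed and 1 had an unadjusted p under 0.05. Over all 399 tested genes, 196 had positive fold changes. Of 10 tested proximal tubule markers, 2 were lower in Akita (Cyp4b1 and Miox), and 0 had a positive fold change, with a median of -1.60, beside the summed levels of that list given above. The pair of threshold members weighed on this list too. That of wild-type replicate 1 held 27 of 30 Slc34a1 UMIs and 41 of 124 Kap UMIs of its library. That of wild-type replicate 2 held 14 of 27 and 181 of 311, and at 3096 UMIs it stayed in the sums without cells above 5000 UMIs. The list without this pair was not tested.

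Genes nearest to a call in the other direction did not pass either. Pigr stood at 1075 and 350 CPM in Akita and 218 and 106 CPM in wild type (log2 1.92, SE 0.66, edgeR adjusted p 0.32), with 29 of its 53 UMIs in 1 member of Akita replicate 1. Ndufb4, a subunit of respiratory complex I, stood at 983 and 777 CPM against 436 and 317 CPM (log2 1.04, SE 0.41, edgeR adjusted p 0.61). The others with the smallest p in this direction were mt-Tq, Gm11273 and Gm14539, and 4931406C07Rik (log2 -2.42, edgeR adjusted p 0.062) was next in the direction of lower in Akita.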

How the data were processed

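Values deposited by the authors are raw UMI counts, 1 file per library, by gene and barcode. Per the submitters' processing notes, the tools were featureCounts 1.6.0, STAR 2.5.2b and UMI-tools 0.5.3, with the mouse genome GRCm38. Per the labels' protocols, cortex was sieved at 70 micron and digested with collagenase for 30 minutes, the cell barcode is 12 bases and the UMI 8 bases. The growth protocol gives 24 weeks of housing, longer than any labelled age, and 8 mice per group.

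Barcodes with an undetermined base, or the same base 11 times or more, were left out (1.19% of UMIs), and no doublet caller was run. The members, gene lists and tests were chosen with earlier results of these data known. UMIs were summed per library, or per unit and class, and tested with the two-sided quasi-likelihood test of edgeR 4.0.16 (R 4.3.3, filterByExpr, TMM factors, Benjamini-Hochberg adjustment over all genes tested, threshold 0.05), which was tested on simulated data. DESeq2 1.42.0, limma 3.58.1 (voom), other filters, barcode handling, thresholds and left-out libraries were alternatives. A genotype is 2 libraries of differing age, so p-values measure only the spread between these samples. CPM relates a gene's UMIs to all UMIs of the same cells and is not divided by gene length, since 1 UMI stands for 1 captured 3′ end. Genes named are those with an adjusted p under 0.05 and at least 100 CPM for genotype (up to 10 per direction, or the 5 of smallest p where fewer than 5 passed), the 12 largest fold changes per direction with at least 300 CPM for classes, of which some are printed, the leading 4 of each list, and genes that the segment's biology calls for. A few genes of the lists are not reported here.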

Additional observations from a re-analysis of the deposited data

How the results depend on the processing

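The number of genes called between genotypes (4) was 0 with shared barcodes left out, 13 with each shared barcode kept in the file nearer to its mode of the UMI ratio, 0 with it kept in the other file, 0 with at least 4 UMIs of the class sum, 8 with at least 500 genes per cell, 2 with at most 25% mitochondrial UMIs, 1 without cells above 5000 UMIs, 1 by limma-voom and 2 by DESeq2. Without single libraries it ran from 0 (Akita replicate 1) to 11 (wild-type replicate 1). The labels do not state that the replicate numbers pair the mice. Deviations of same-numbered libraries correlated at -0.22 over 399 genes. With 2 libraries per group, the crossed pairing must give the same value with the other sign (0.22). That pairing joins Akita replicate 2 with wild-type replicate 1, which share barcodes, so the correlation cannot decide whether mice were paired. The replicate block left 1 call and a crossed replicate block 1. Against Slc12a3/Trpm6 cells (55) the count was 23 by DESeq2, 7 with shared barcodes left out, 36 without cells above 5000 UMIs, and 0 to 70 without single units. Against S100g/Klk1 cells (375) it was 193, 81, 132, and 177 to 387 in the same order. Against Atp6v cells (69) it was 131 with 4 libraries as units, 34 with shared barcodes left out, and 0 to 116 without single units. The difference in the share of members turned positive with shared barcodes left out (0.494 points), with them kept in the other file (0.433) and without wild-type replicate 2 (0.204), and ran from -0.311 to 0.204 without single libraries. The cause of these shifts was not tested. No named gene reversed in direction under any alternative that could be fitted: for genotype 121 gene and setting pairs kept their side of the threshold, 23 lost it and 4 gained it. The cells above 5000 UMIs and the crossed block were added as alternatives after the data were seen. The 43 distinct barcodes, of which 4 cells hold over 50% of the UMIs, limit every value above.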

Other observations

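Umod and Slc12a1 were not confined to the members. Of 167 retained cells with at least 2 UMIs of the pair, 112 were not members because another sum was equal or higher. In 84 of these the sum of Slc12a3 and Trpm6 was at or above that of Umod and Slc12a1, in 69 that of S100g and Klk1, and in 9 that of the Atp6v genes. The 112 cells had a median of 1629 UMIs, Egf in 90, Wfdc15b in 87 and Kap at 14401 CPM. Umod was found in 89 of 179 Slc12a3/Trpm6 cells with 445 UMIs, while Slc12a1 had 7 UMIs in 6 of them. S100g/Klk1 cells held 110 of the 292 Slc12a1 UMIs in 31 cells. The Slc12a1 transcripts outside the members thus lay mainly in S100g/Klk1 cells and the Umod transcripts mainly in Slc12a3/Trpm6 cells.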
